A study of Mus musculus with 18 samples.

Results

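Interferon gamma signalling was followed through RNA sequencing of MC38 cells and MC38 tumours with and without depletion of Mbtps1, in 9 genes. These were the ligand Ifng, the receptor chains Ifngr1 and Ifngr2, the kinases Jak1 and Jak2, the transcription factors Irf1 and Irf8, the feedback inhibitor Socs1 and the effector enzyme Ido1. The genes were chosen by name for their place in the pathway, with earlier results of these data known. Each was matched to 1 row of the count table, giving 9 of its 15596 gene symbols. MC38 is a cell line from a mouse colon adenocarcinoma, and Mbtps1 encodes site-1 protease, an enzyme of the secretory pathway that cuts membrane-bound transcription factors such as the SREBPs and ATF6. The 16 RNA libraries were 3 of cultured control cells (genotype label Mbtps1 WT), 3 of cultured depleted cells (Mbtps1 KD), 5 of tumours grown from control cells and 5 of tumours grown from depleted cells, the hosts being wild-type C57BL/6 mice per the series text. The depleted groups are called knockdown below, after the sample labels, although the series text calls the depleted cultures a knockout. The reagent used, whether the depleted line was 1 clone, and the age of the mice are not stated in the labels. A pooled CRISPR screen gave 1 library of MC38 cells from C57BL/6 mice and 1 from Rag1-knockout mice, which lack mature T and B cells.

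Interferon gamma is a cytokine that T cells and natural killer (NK) cells release in tumours. It binds a receptor built from the Ifngr1 and Ifngr2 chains, and the kinases JAK1 and JAK2 bound to these chains start a phosphorylation signal that ends at gamma-activated sequences in target promoters. IRF1 is an early target that extends the response to interferon-stimulated response elements, SOCS1 is a target that inhibits the kinases, and IDO1 is a target that breaks down tryptophan to kynurenine, a step known to restrain T cells.

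Promoter sequences are shown for the members whose promoters held a motif that factors of this pathway are known to bind and that lie on the response side of the pathway, so that the elements can be seen beside the expression of the gene. RefSeq promoters (build GRCm38.p6) were found for 8 of the 9 members, 10 promoters in all, and were searched on both strands from 250 bases before to 50 bases after the start site. The gamma-activated sequence was taken as TTCNNNGAA and the core of the interferon-stimulated response element as GAAA, any 2 bases, then GAAA. Each sequence below runs 5′ to 3′ over the 250 bases before the start site, with the motif matches in capitals.
Irf1 (chr11:53769764-53770013, plus strand): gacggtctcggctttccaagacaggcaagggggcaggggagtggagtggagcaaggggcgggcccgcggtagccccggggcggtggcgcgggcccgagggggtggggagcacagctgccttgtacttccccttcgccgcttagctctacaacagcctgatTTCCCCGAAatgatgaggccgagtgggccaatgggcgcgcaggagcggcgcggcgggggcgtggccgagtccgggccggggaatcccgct
Irf8 (chr8:120736108-120736357, plus strand): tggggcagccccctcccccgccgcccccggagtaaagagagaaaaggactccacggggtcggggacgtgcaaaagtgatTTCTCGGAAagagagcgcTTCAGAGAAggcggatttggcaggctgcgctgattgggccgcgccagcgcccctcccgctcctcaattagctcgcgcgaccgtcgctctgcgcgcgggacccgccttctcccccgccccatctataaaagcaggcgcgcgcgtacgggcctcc
Socs1 (chr16:10785537-10785786, minus strand): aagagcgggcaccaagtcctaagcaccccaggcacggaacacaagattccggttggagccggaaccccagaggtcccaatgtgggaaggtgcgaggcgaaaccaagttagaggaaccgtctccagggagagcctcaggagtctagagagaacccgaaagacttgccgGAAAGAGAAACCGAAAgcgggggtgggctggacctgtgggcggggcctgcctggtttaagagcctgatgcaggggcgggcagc
The Irf1 promoter held 1 gamma-activated sequence, TTCCCCGAA, starting 90 bases before the start site. The first Irf8 promoter held 2, TTCTCGGAA at 171 bases and TTCAGAGAA at 153 bases before it. The Socs1 promoter held 2 response element cores, GAAAGAGAAA at 83 bases and GAAACCGAAA at 77 bases before the start, which share 4 bases. The Ifng promoter held a gamma-activated sequence, TTCAGAGAA, at 249 bases before the start, and no match stood in the promoters of Ifngr1, Ifngr2, Jak1 and Jak2 or in the second promoters of Irf1 and Irf8. Among all 32851 promoters of this length, 8.3% held the gamma-activated sequence and 3.44% the response element core, while 3 of the 8 members held the first motif and 1 the second. Counted by gene over all its promoters, the shares were 9.55% and 3.99% of 27025 genes. A match is a stretch of letters and was not measured as a bound site.

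Total counts ran from 14240353 to 15515405 in the cell libraries and from 19630410 to 32655739 in the tumour libraries. Mbtps1 itself fell by 1.84 on the log2 scale in knockdown cells (SE 0.09, adjusted p = 3.1e-06, n = 3 per group) and fell by 1.21 in knockdown tumours (SE 0.09, adjusted p = 1.16e-05, n = 5 per group), as edgeR's quasi-likelihood test with Benjamini-Hochberg adjustment over all genes gave it. Every adjusted p for a gene below comes from that test, and a gene is said to have risen or fallen where it is under 0.05. Levels are CPM, the count scaled to the total of its library. The lowest non-zero sum of a gene over all cell libraries was 13 and over all tumour libraries 15, a floor below which genes seem to have been recorded as 0, so a gene without counts is called listed at 0. In the cultured cells, all matched T cell, NK cell and neutrophil markers (7 of 8, 5 of 5 and 4 of 5) were listed at 0. Of 6 epithelial markers, 3 were matched: Epcam and Cdh1 were listed at 0 in the cultured cells and Krt8 averaged 2.59 CPM, while 4 fibroblast markers summed to between 304 and 428 CPM. The labels do not say whether replicates were separate cultures or animals, so a p-value covers the spread among the libraries at hand, and that spread may be technical. Tumour RNA mixes tumour and host cells, so more cells of a type and more RNA per cell cannot be told apart there.

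Across the 9 members, the knockdown tumours had more Ifng, Ido1 and Irf1 mRNA, and none of the others passed the test. In cultured cells Socs1 was the member that rose, and no member fell in either setting. These counts are read against the share of all genes called, and neither is far from it. In cells, 1 of 6 tested members rose and 0 fell, against 9.33% of 11905 genes called, 3.76% higher and 5.57% lower. In tumours, 3 of 9 rose and 0 fell, against 38.4% of 13997 genes called, 20.1% higher and 18.3% lower. The median log2 fold change of the members was 0.14 in cells, beside 0.01 over all genes tested, and 0.19 in tumours, beside 0.02. The groups did not overlap for 3 of 6 members in cells, where this held for 31.8% of all genes tested, and for 2 of 9 in tumours, where it held for 22.6%.

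**Figure D1:**
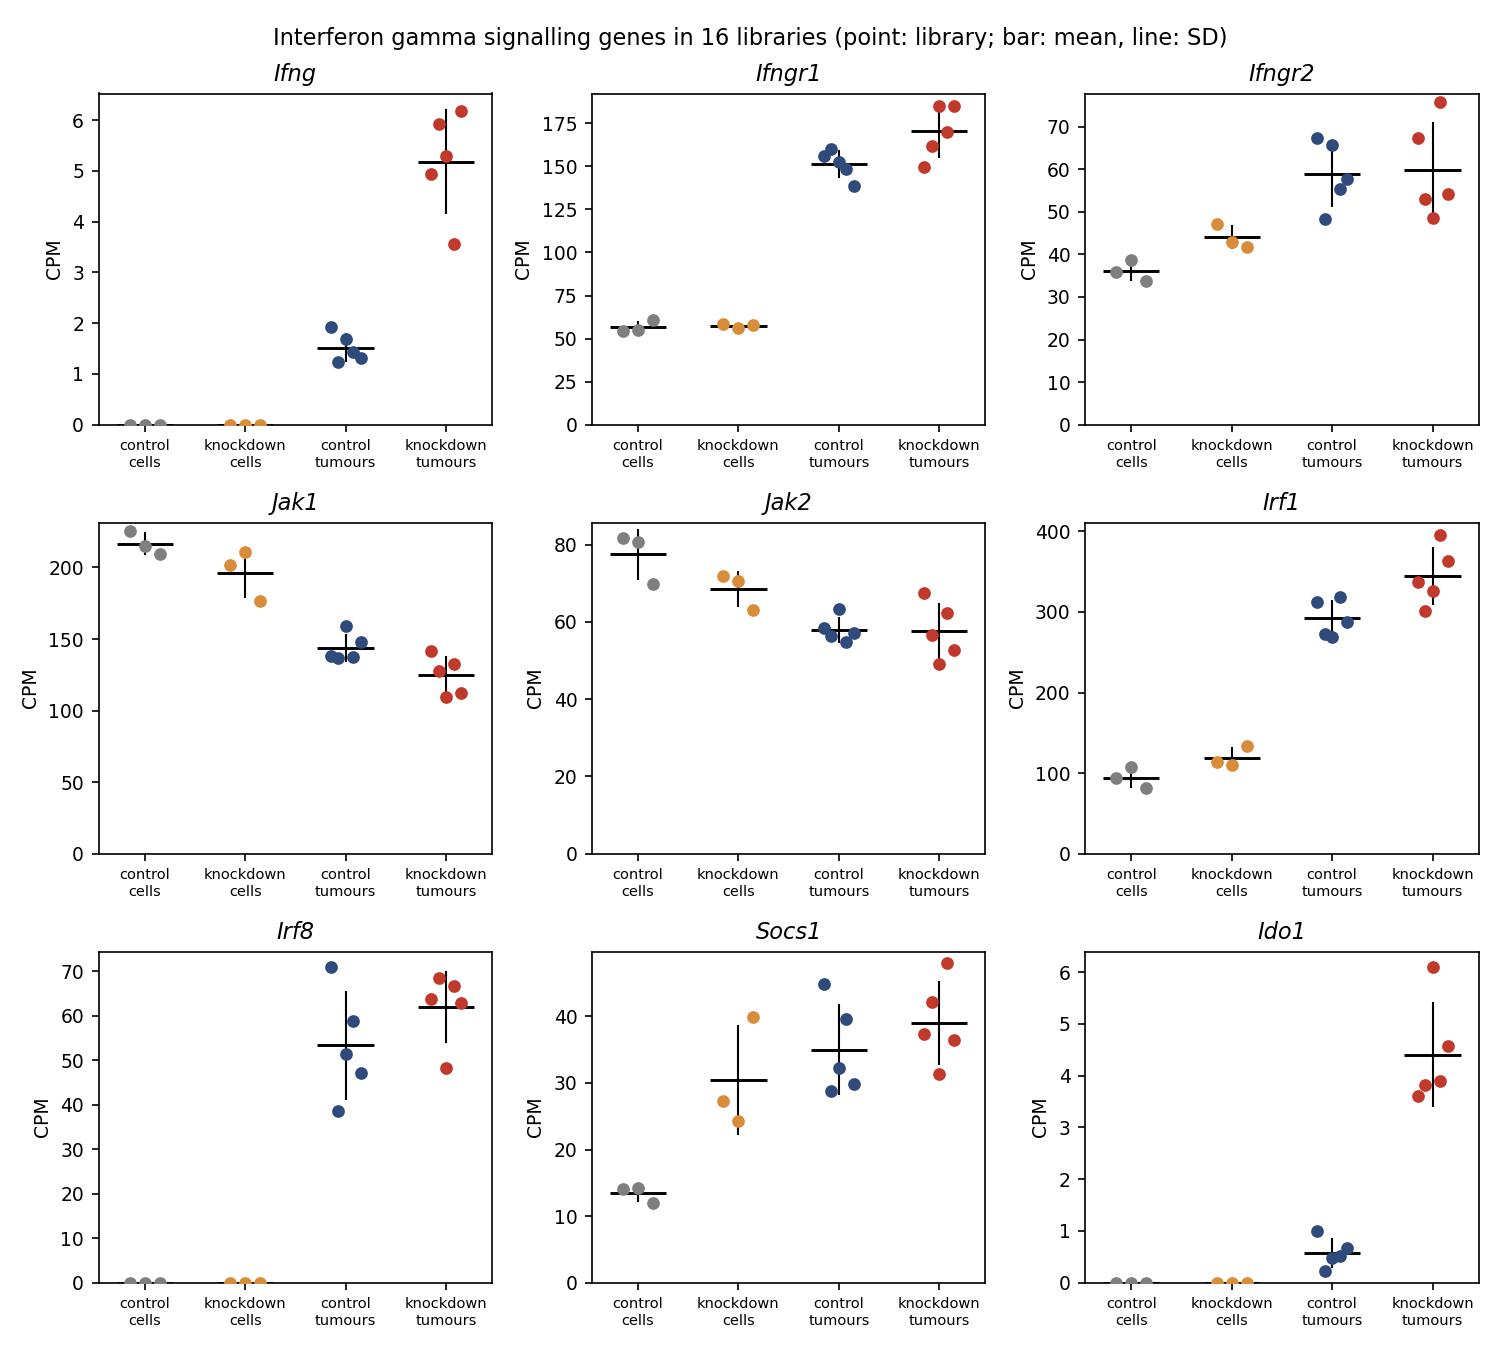
CPM of the 9 members (vertical axes, each from 0) in control and knockdown cells (3 libraries each) and control and knockdown tumours (5 each). Points are libraries, horizontal bars means and vertical lines SD. Ifng and Ido1 stand higher in all 5 knockdown tumours than in any control tumour, and both, with Irf8, are listed at 0 in the 6 cell libraries.

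The ligand Ifng (chromosome 10, 118441046 to 118445892, plus strand, GRCm38) was listed at 0 in all 6 cell libraries. In the control tumours it stood at 1.92, 1.24, 1.70, 1.43 and 1.31 CPM, from 27 to 43 reads. In the knockdown tumours it stood at 4.95, 5.93, 5.30, 3.55 and 6.17 CPM, from 80 to 173 reads. The lowest knockdown tumour was above the highest control tumour. Ifng rose 3.46-fold (log2 fold change 1.79, SE 0.20, 95% interval 1.36 to 2.22, adjusted p = 8.01e-05), and it was called in 17 of 17 other processing settings, with log2 fold changes from 1.73 to 1.90. Its exons overlap those of Gm49751 on the same strand by 336 bases, so reads of the pair cannot be separated there.

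The receptor chains bind the cytokine (Ifngr1) and carry the signal inward with it (Ifngr2). Ifngr1 (chromosome 10, 19591949 to 19610229, plus strand) stood at 54.7, 54.8 and 60.7 CPM in control cells and at 58.5, 56.1 and 57.6 in knockdown cells. Its levels overlapped and the difference was 0.01 on the log2 scale (SE 0.09, 95% interval -0.20 to 0.21, adjusted p = 0.974). In control tumours Ifngr1 stood at 155.9, 159.9, 152, 148.6 and 138.6 CPM, and in knockdown tumours at 149, 162, 185, 169.8 and 185. The highest 4 libraries were knockdown tumours, but the groups overlapped and the difference missed the threshold (0.19, SE 0.08, 95% interval 0.01 to 0.37, unadjusted p = 0.0433, adjusted p = 0.0921). It passed in 2 of 18 other settings, at adjusted p = 0.0451 with all 16 libraries in 1 fit and at 0.0418 without knockdown tumour 1.

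Ifngr2 (chromosome 16, 91547072 to 91565623, plus strand) stood at 35.9, 38.6 and 33.8 CPM in control cells and at 47.2, 43.0 and 41.8 in knockdown cells. The groups did not overlap, yet the difference did not pass the adjusted threshold (0.28, SE 0.10, 95% interval 0.05 to 0.50, unadjusted p = 0.0202, adjusted p = 0.115). Control tumours held 67.3, 48.35, 65.7, 55.3 and 57.7 CPM and knockdown tumours 67.4, 52.9, 48.6, 75.7 and 54.1. These ranges lay over each other, with a difference of 0.03 (SE 0.12, 95% interval -0.22 to 0.28, adjusted p = 0.842).

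The kinases showed no call in either setting. Jak1 (chromosome 4, 101152367 to 101265282, minus strand) stood at 226, 215 and 209.6 CPM in control cells and at 202, 211 and 176 in knockdown cells, a difference of -0.15 (SE 0.10, 95% interval -0.36 to 0.06, adjusted p = 0.339). In tumours it stood at 138, 137, 159, 137 and 148 CPM in controls and at 141, 128, 109, 133 and 112 in knockdown libraries. The 4 lowest libraries were knockdown tumours and the fifth lay within the control range. The difference was -0.19 (SE 0.08, 95% interval -0.37 to -0.01, unadjusted p = 0.0379, adjusted p = 0.0832), and it passed in 2 of 18 other settings, with the DESeq2 test (adjusted p = 0.0489) and without knockdown tumour 1 (adjusted p = 0.0339). Jak2 (chromosome 19, 29251828 to 29313080, plus strand) stood at 81.7, 80.7 and 69.9 CPM in control cells and at 71.8, 70.5 and 63.2 in knockdown cells (-0.19, SE 0.10, 95% interval -0.41 to 0.03, adjusted p = 0.260). Control tumours gave 58.3, 56.2, 63.4, 54.8 and 57.03 CPM of Jak2, and knockdown tumours 67.5, 56.5, 49.0, 62.2 and 52.8, which spread more widely around the same level (0.00, SE 0.08, 95% interval -0.18 to 0.19, adjusted p = 0.970).

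Irf1 (chromosome 11, 53770014 to 53778374, plus strand), whose promoter with its gamma-activated sequence is printed above, had the highest tumour level of the members per kilobase of exon. In control cells it stood at 94.3, 107 and 81.1 CPM and in knockdown cells at 113, 110.4 and 134. All 3 knockdown libraries were above the controls, and the difference of 0.33 missed the adjusted threshold (SE 0.11, 95% interval 0.08 to 0.58, unadjusted p = 0.0142, adjusted p = 0.0946). Control tumours held 312, 273, 268, 318 and 288 CPM and knockdown tumours 337, 301, 326, 395 and 363. The groups overlapped through knockdown tumour 2. Irf1 rose 1.19-fold in tumours (log2 fold change 0.25, SE 0.09, 95% interval 0.07 to 0.43, adjusted p = 0.0344). The call was kept in 12 of 18 other settings and lost with scaling to library totals (adjusted p = 0.0551), without control tumours 2, 3 or 5 (0.0688, 0.105 and 0.0769) and without knockdown tumours 4 or 5 (0.082 and 0.0744). On the opposite strand, 135 exon bases of Irf1 overlap Gm17334, and the labels do not say whether counting used strand.

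Irf8 (chromosome 8, 120736358 to 120756694, plus strand), a factor of macrophages, dendritic cells and B cells, was listed at 0 in all 6 cell libraries. Control tumours stood at 70.95, 38.6, 51.4, 58.9 and 47.25 CPM and knockdown tumours at 63.8, 68.5, 48.2, 66.7 and 62.9. The highest library was a control tumour and the groups overlapped, with a difference of 0.23 (SE 0.14, 95% interval -0.07 to 0.53, adjusted p = 0.208).

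Socs1 (chromosome 16, 10782240 to 10785536, minus strand), the feedback inhibitor with 2 overlapping response element cores in its promoter, was the member that rose in culture. It stood at 14.1, 14.25 and 12.01 CPM in control cells and at 27.2, 24.2 and 39.9 in knockdown cells. The groups were apart, with knockdown cell library 3 the highest. Socs1 rose 2.25-fold (log2 fold change 1.17, SE 0.18, 95% interval 0.78 to 1.56, adjusted p = 0.00264), and all 14 other settings kept the call, with log2 fold changes from 0.93 to 1.3. In tumours it stood at 44.8, 28.8, 32.2, 39.5 and 29.8 CPM in controls and at 37.4, 42.1, 31.4, 47.9 and 36.4 in knockdown libraries. The ranges overlapped and the difference was 0.17 (SE 0.13, 95% interval -0.12 to 0.46, adjusted p = 0.331).

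Ido1 (chromosome 8, 24584136 to 24597009, minus strand), the tryptophan-degrading enzyme, had the largest fold change of the 9 members. It was listed at 0 in all 6 cell libraries. Control tumours stood at 1.01, 0.229, 0.474, 0.509 and 0.671 CPM, from 5 to 22 reads, and knockdown tumours at 3.62, 3.82, 6.09, 3.91 and 4.58 CPM, from 85 to 199 reads. Every knockdown tumour was above every control, and the control values rest on few reads. Ido1 rose 7.67-fold (log2 fold change 2.94, SE 0.30, 95% interval 2.30 to 3.58, adjusted p = 4.97e-05) and was called in 17 of 17 other settings, with log2 fold changes from 2.75 to 3.21.

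**Figure D2:**
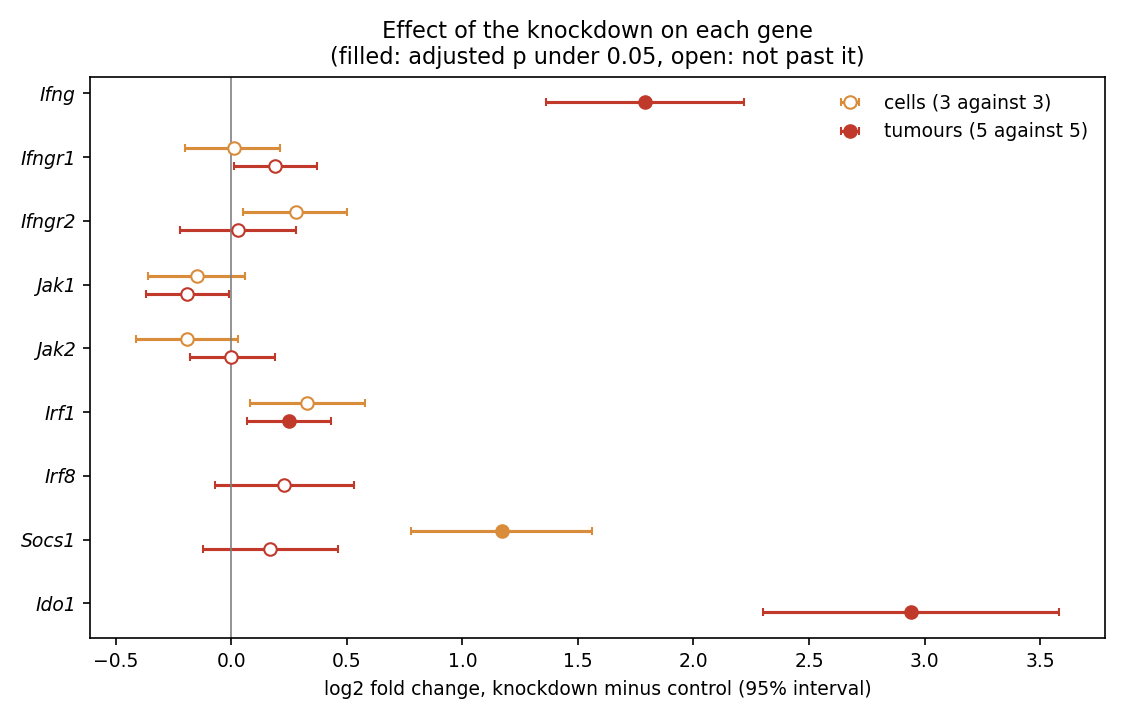
Log2 fold change of knockdown over control with its 95% interval (horizontal axis) for each member (vertical axis) in cells (3 against 3 libraries) and tumours (5 against 5). Filled points have an adjusted p under 0.05; Ifng, Irf8 and Ido1 have no value in cells. Socs1 is filled in cells, and Ifng, Irf1 and Ido1 are filled in tumours.

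Whether the log2 fold change of knockdown over control differed between tumours and culture was tested as an interaction. This was 1 fit of all 16 libraries, for the 6 members with counts in both. Tumour libraries also hold host RNA, so a different effect of the knockdown and dilution by host RNA cannot be told apart here. Socs1 differed: its effect in tumours was lower than that in cells by a log2 difference of -0.98 (SE 0.24, 95% interval -1.48 to -0.48, adjusted p = 0.00794), and the difference was called in 23 of 23 other settings, from -1.11 to -0.75. For the other 5 members the difference was 0.20 for Ifngr1 (adjusted p = 0.272), -0.23 for Ifngr2 (0.372), -0.02 for Jak1 (0.934), 0.21 for Jak2 (0.279) and -0.06 for Irf1 (0.805). So 0 of 6 members were called higher and 1 lower, beside 22.7% of 12581 genes called, 12.7% higher and 9.95% lower. Mbtps1 also differed, by 0.65 (SE 0.14, adjusted p = 0.00328), its fall being smaller in tumours.

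Control tumours and control cells differed in the level of every member, which is given as a description because tumours hold host cells and were sequenced more deeply. Ifngr1 stood 2.66 times, Ifngr2 1.63 times, Irf1 3.1 times and Socs1 2.6 times as high in control tumours as in control cells, with no overlap. Jak1 (0.664 times) and Jak2 (0.748 times) were lower in the tumours, again with no overlap. Per kilobase of exon, the order in control tumours was Irf1 (73.4 CPM per kb), Ifngr1 (53.0), Jak1 (19.9), Ifngr2 (15.6), Socs1 (12.04), Jak2 (11.5), Irf8 (7.57), Ifng (1.17) and Ido1 (0.317). Among neighbours in that order, Ifngr2 and Socs1 overlapped, as did Socs1 and Jak2. Knockdown tumours kept the same order, with Ifng at 4.0 and Ido1 at 2.41 CPM per kb. There the neighbours from Jak1 through Ifngr2 and Socs1 to Jak2 overlapped, and so did Ifng and Ido1. In control cells Jak1 led at 30.0 CPM per kb, ahead of Irf1 (23.7), Ifngr1 (19.9), Jak2 (15.4), Ifngr2 (9.58) and Socs1 (4.62), of which only the neighbours Irf1 and Ifngr1 overlapped. In knockdown cells Irf1 (29.98) and Jak1 (27.2) overlapped at the top, and Socs1 (10.5) overlapped Ifngr2 (11.7).

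The rest of the pathway was read from lists of other genes. Over all genes tested, 3.76% were called higher and 5.57% lower in cells, and 20.1% higher and 18.3% lower in tumours. Of the signal transducers and brakes (transcription factors such as STAT3, other interferon regulatory factors, phosphatases, PIAS proteins and coactivators), 0 of 14 tested rose and 1 fell in cells, with a median log2 fold change of -0.04. Stat3, which carries signals of the interleukin-6 family, was the gene that fell there (-0.56, SE 0.11, adjusted p = 0.0108), a call lost without control cells 1 or 2 or knockdown cells 1 (0.0739, 0.0519 and 0.0581). In tumours 4 of 15 rose and 3 fell, with a median of -0.13. The higher count was 2 without control tumours 2, 3, 4 or 5 or knockdown tumours 2 or 4, and the lower count was 1 without control tumours 1, 4 or 5 or knockdown tumours 5. Beside Stat3, the genes that fell were Ptpn11, which encodes the phosphatase SHP2 (-0.41, adjusted p = 0.0386), and Pias4, a STAT inhibitor (-0.21, adjusted p = 0.0389). Stat3 fell again in tumours, from 184 ± 13.1 to 110 ± 26.1 CPM (SD, n = 5; -0.74, SE 0.12, adjusted p = 0.000785). Ptpn2, a phosphatase that removes phosphate from JAK1 and JAK3, rose from 29.6 ± 4.41 to 49.3 ± 9.45 CPM (SD, n = 5; 0.75, SE 0.14, adjusted p = 0.00172). Its effect differed from that in cells by 0.74 (SE 0.20, adjusted p = 0.015), a call that was at 0.0501 without knockdown cells 3. Socs3, a relative of Socs1, rose in tumours (0.50, SE 0.13, adjusted p = 0.00809).

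Receptors and kinases of neighbouring cytokine pathways gave 0 calls among 7 tested genes in cells (median 0.00) and 4 higher and 1 lower of 9 in tumours (median 0.23). Over all genes, 9.33% were called in cells, and 20.1% were called higher and 18.3% lower in tumours. In cells 1 of the 7 had an unadjusted p under 0.05, and the DESeq2 and limma voom fits called 0, while 1 was called lower without control cells 3. The higher count in tumours was 2 with the replicate block and without control tumours 3 or 4 or knockdown tumours 3 or 5, and 1 without control tumours 5. The lower count was 2 without control tumours 2 or knockdown tumours 1 or 4. Jak3, a kinase of lymphoid cytokine receptors, was the gene that fell (-0.44, adjusted p = 0.00784). Stat4, which carries interleukin-12 signals to Ifng in lymphocytes, was listed at 0 in cells and rose in tumours from 4.17 ± 1.56 to 9.12 ± 0.963 CPM (SD, n = 5; 1.15, SE 0.22, adjusted p = 0.00159).

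Genes upstream of Ifng, such as Tbx21, Eomes and the interleukin-12, interleukin-15 and interleukin-18 systems, rose for 2 of 6 tested in cells (median 0.49) and for 8 of 12 in tumours (median 0.81), with none lower. Over all genes, 3.76% were called higher in cells and 20.1% in tumours. Il18rap, a chain of the interleukin-18 receptor, rose in tumours from 7.16 ± 2.56 to 17.2 ± 3.98 CPM (SD, n = 5; 1.28, SE 0.21, adjusted p = 0.000771). Il15, a cytokine that sustains NK cells and memory T cells, rose in tumours (0.82, SE 0.12, adjusted p = 0.000482). Its receptor chain Il15ra, which presents it, rose there too (0.80, SE 0.10, adjusted p = 0.000215). Both also passed in cells, Il15 at 2.08 ± 0.141 against 4.30 ± 0.75 CPM (SD, n = 3; 1.03, SE 0.25, adjusted p = 0.0282) and Il15ra at 0.51 (SE 0.14, adjusted p = 0.0404). The count of 2 in cells dropped to 0 with the replicate block, without any one of the control cell libraries and without knockdown cells 1 or 2.

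Some interferon gamma targets rose in cells and most rose in tumours. In cells 8 of 20 tested targets rose, 0 fell and 12 were not called (median 0.53), beside 3.76% of all genes called higher. In tumours 16 of 24 rose, 0 fell and 8 were not called (median 0.72), beside 20.1% of all genes called higher. The count that fell was 1 in cells with the DESeq2 test, without control cells 3 and without knockdown cells 3, and 1 in tumours without control tumours 2. The higher count in cells was 4 without control cells 1 and 4 without knockdown cells 1. Cxcl9, a chemokine that draws activated T cells and is induced by interferon gamma, was listed at 0 in the cells and rose in tumours from 253 ± 75.9 to 753 ± 54.0 CPM (SD, n = 5; 1.59, SE 0.16, adjusted p = 5.69e-05). The guanylate-binding protein gene Gbp7 rose from 88.8 ± 9.42 to 183 ± 16.3 CPM in tumours (SD, n = 5; 1.06, SE 0.10, adjusted p = 2.38e-05). Iigp1, an immunity-related GTPase, rose from 154 ± 16.2 to 375 ± 58.6 CPM (SD, n = 5; 1.3, SE 0.12, adjusted p = 2.56e-05). In culture, where no Ifng was listed, Cxcl10 rose from 37.5 ± 1.89 to 75.1 ± 7.60 CPM (SD, n = 3; 0.99, SE 0.11, adjusted p = 0.000378). Gbp4 rose there by 1.44 (SE 0.19, adjusted p = 0.00109) and the immunoproteasome gene Psmb10 by 1.04 (SE 0.17, adjusted p = 0.00421). Cd274, which encodes the checkpoint ligand PD-L1, rose in tumours from 54.7 ± 8.73 to 97.2 ± 11.6 CPM (SD, n = 5; 0.85, SE 0.12, adjusted p = 0.000281). In cells it rose from 10.6 ± 0.459 to 17.3 ± 2.26 CPM (SD, n = 3; 0.69, SE 0.15, adjusted p = 0.0162), a call lost without control cells 1 or 2 or knockdown cells 1 (0.0671, 0.0642 and 0.0881).

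The log2 fold change of targets differed between tumours and culture for 6 of 21 tested, 4 with a higher and 2 with a lower effect in tumours. Over all 12581 genes tested, 22.7% were called, 12.7% higher and 9.95% lower. Here too, tumour libraries hold host RNA, so a different effect in MC38 cells and a part of host cells cannot be told apart. Gbp7 gave 1.11 (SE 0.26, adjusted p = 0.00643), Nlrc5, the regulator of class I antigen presentation, 0.84 (SE 0.20, adjusted p = 0.00591), and B2m, the light chain of class I molecules, 0.71 (SE 0.20, adjusted p = 0.0172). In the separate fits, Gbp7, Nlrc5 and B2m were not called in cells (-0.03, -0.01 and -0.10). They rose in tumours (1.06, 0.81 and 0.59). Psmb10 (-0.94, adjusted p = 0.00332) and the adhesion gene Icam1 (-1.66, adjusted p = 0.0143) had the lower effects in tumours, a count that was 1 with limma voom and without control cells 3. Icam1 averaged only 0.942 CPM in the cell libraries, where it rose by 2.37 (adjusted p = 0.0108). It rose in tumours too, by 0.71 (adjusted p = 0.00166), while Psmb10 was not called there (0.08, adjusted p = 0.532). Without knockdown cells 3 the count of higher effects was 2 and B2m was no longer called (0.0551). For Cd274 the difference was 0.17 (SE 0.20, adjusted p = 0.549).

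Around Ido1, the genes of tryptophan uptake, breakdown and sensing rose for 2 of 4 tested in cells (median 0.45), a count of 0 without control cells 1 and of 1 with the replicate block, without control cells 2 or 3 and without knockdown cells 1. In tumours 3 of 8 rose and 1 fell (median 0.06), Ido1 itself among the 3 and the transporter chain Slc7a5 (-0.46, adjusted p = 0.0146) the one that fell. Over all genes, 3.76% were called higher in cells, and 20.1% were called higher and 18.3% lower in tumours. Ido2, the paralog of Ido1, rose from 1.62 ± 0.997 to 6.27 ± 0.572 CPM in tumours (SD, n = 5; 1.96, SE 0.32, adjusted p = 0.000698). Ahr, the receptor that binds kynurenine, rose in tumours (0.80, SE 0.11, adjusted p = 0.000251) and in cells (0.56, SE 0.13, adjusted p = 0.0211). The call for Ahr in cells was lost without any one of the control cell libraries or without knockdown cells 1 (adjusted p from 0.051 to 0.0891). Slc3a2, the heavy chain of an amino acid transporter, rose in cells (0.55, SE 0.10, adjusted p = 0.00701), but not without control cells 1 (0.0595). The downstream enzymes Kmo and Kynu gave -0.74 (adjusted p = 0.0995) and -0.20 (adjusted p = 0.685) in tumours.

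**Figure D3:**
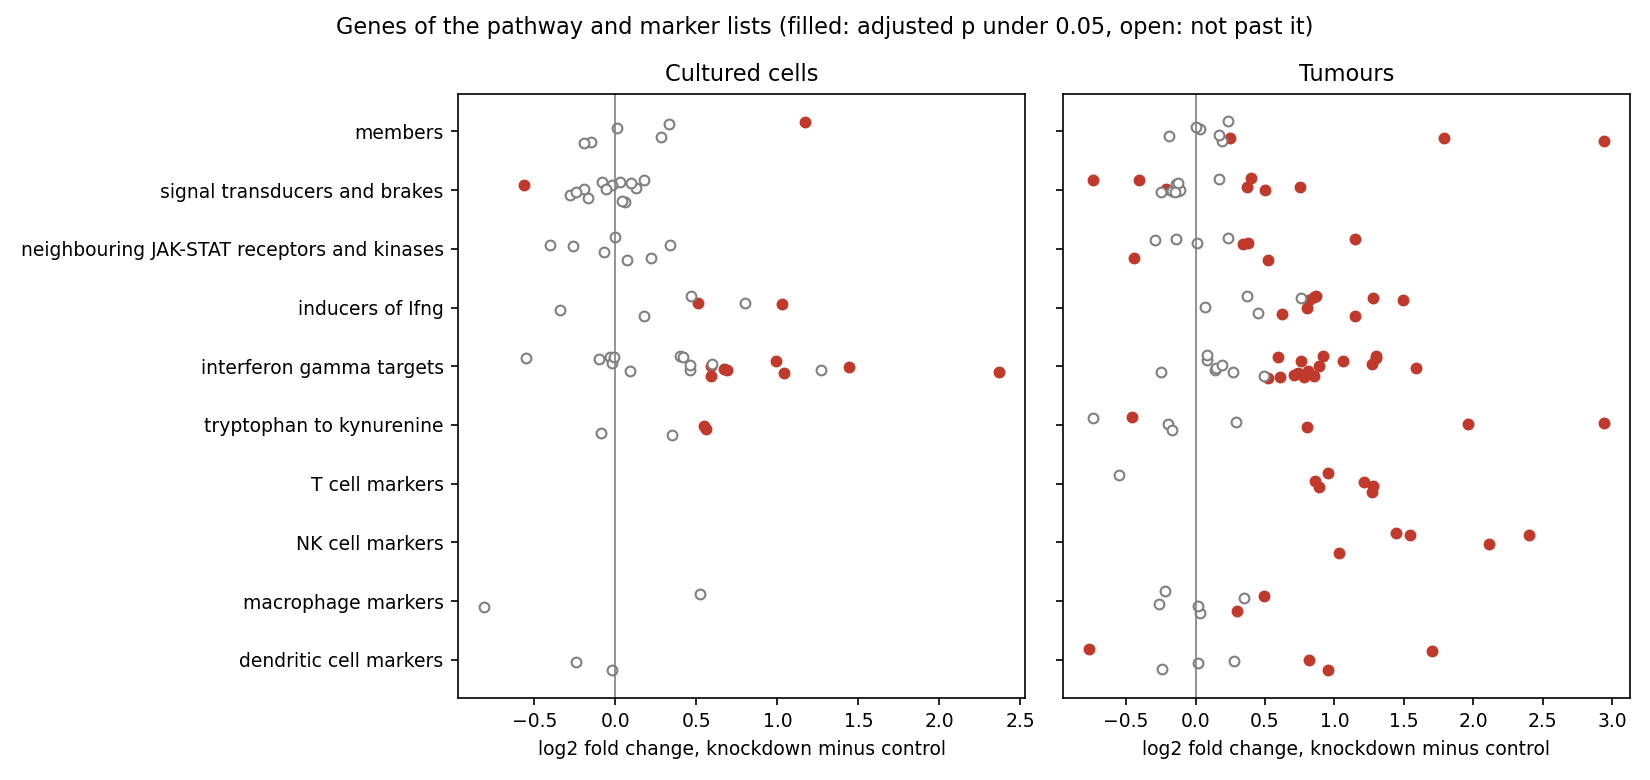
Log2 fold change of knockdown over control (horizontal axis) for each tested gene of the members, the pathway lists and 4 marker lists (rows), in cultured cells (left) and tumours (right). Each point is a gene, filled where its adjusted p is under 0.05. In tumours 16 of 24 interferon gamma targets and 5 of 5 NK cell markers are filled on the higher side.

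Of the cell types that make or read interferon gamma, most T cell markers and every NK cell marker tested rose in tumours, while macrophage and dendritic cell markers were mixed. T cell markers rose for 6 of 7 tested (median 0.95), beside 20.1% of all genes called higher, and their sum ran from 33.6 to 78.6 CPM in control tumours and from 92.9 to 122 in knockdown tumours. NK cell markers rose for 5 of 5 (median 1.54), with sums from 14.3 to 29.1 and from 47.1 to 72.4 CPM. Neither pair of ranges overlapped. Cd4, the coreceptor of helper T cells, was the T cell marker without a rise (-0.55, adjusted p = 0.157). Without control tumours 5, 1 T cell marker was called lower. Klrd1, an NK cell receptor chain, rose from 3.17 ± 0.692 to 16.4 ± 4.07 CPM (SD, n = 5; 2.40, SE 0.19, adjusted p = 1.16e-05), and Cd8a, the coreceptor of cytotoxic T cells, from 13.4 ± 4.38 to 31.9 ± 2.76 CPM (SD, n = 5; 1.27, SE 0.17, adjusted p = 0.000269). Of 7 macrophage markers 2 rose (median 0.03), with sums from 2100 to 3580 CPM in controls and from 2250 to 3810 in knockdown tumours. Of 7 tested dendritic cell markers 3 rose and 1 fell (median 0.28), Xcr1 and Clec9a of cross-presenting dendritic cells rising by 1.70 (SE 0.23, adjusted p = 0.000252) and 0.95 (SE 0.12, adjusted p = 0.000182). Ccr7, a receptor of migrating dendritic cells, was the one that fell (-0.77, adjusted p = 0.0268), but not without control tumours 1 or 3 or knockdown tumours 5. Clec9a also averaged 21.7 CPM in the cultured cells, so it does not mark host cells alone here. Over all genes tested in tumours, 20.1% were called higher and 18.3% lower. The remaining lists held 0 of 1 B cell marker called, 1 of 3 neutrophil markers higher, 1 of 4 endothelial markers lower, 1 of 4 fibroblast markers higher and 2 lower, and 0 of 1 epithelial marker called. A neutrophil marker, S100a9, was also called lower (-1.28, adjusted p = 0.0492). That call was lost with library totals, without the filter, with limma voom, without control tumours 2, 4 or 5 and without any one of the knockdown tumours, and the lower count was 2 without control tumours 3. Of the fibroblast markers, Thy1, listed at 0 in the cultured cells, was the one that rose (0.57, adjusted p = 0.0103). Pdgfra (-0.55, adjusted p = 0.000891) and Pdgfrb (-1.19, adjusted p = 0.000152) fell. Pdgfra averaged 184 CPM in the cultured cells, so it does not mark host cells alone here. It fell in knockdown cells too (-0.39, adjusted p = 0.0319). That call was lost with the replicate block, without control cells 1 or 2 and without knockdown cells 1.

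A ratio inside each library set Ifng against the T and NK cell markers. Per 1000 marker counts, Ifng stood at 17.9, 22.1, 22.1, 25.7 and 27.3 in control tumours and at 35.3, 32.1, 35.5, 23.6 and 33.3 in knockdown tumours. Of the knockdown tumours 4 were above every control, and knockdown tumour 4 lay inside the control range. The means were 23.0 ± 3.66 and 32.0 ± 4.89 (SD, n = 5 each), a ratio of 1.39, with an exact two-sided permutation p of 0.0238 (0.0476 adjusted over the 2 ratios tested, the smallest possible p being 0.00794). That is a smaller difference than the 3.46-fold rise of Ifng itself, and 12 of the 13 markers were matched. The pooled lists did not rise alike. From control to knockdown tumours, the median sum went from 41.6 to 96.2 CPM for T cell markers. For NK cell markers it went from 16.8 to 57.1 CPM. The ratio of Ifng to either list alone was not tested. Irf8 per 1000 macrophage and dendritic cell marker counts was 19.2 ± 1.75 in control and 19.4 ± 1.51 in knockdown tumours (SD, n = 5 each), and the exact permutation p was 0.833. Dendritic cell markers summed to 56.8 to 84.7 CPM in control and 81.2 to 103 in knockdown tumours. Macrophage markers summed to 2100 to 3580 and 2250 to 3810, so the Irf8 ratio is set mainly by macrophage markers. Marker counts do not separate cell number from RNA per cell, and the part of cell number in either result was not tested.

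**Figure D4:**
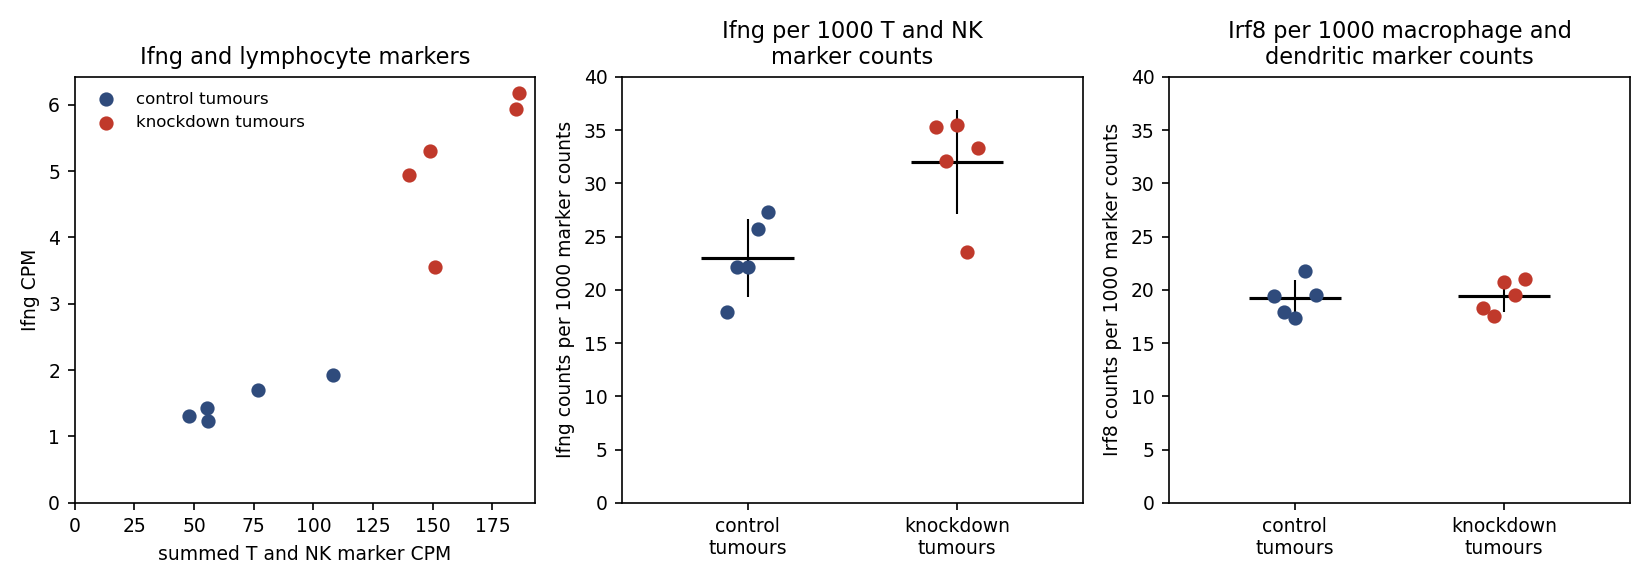
Left, Ifng CPM (vertical axis) against the summed CPM of T and NK cell markers (horizontal axis) in 10 tumour libraries. Middle and right, Ifng per 1000 T and NK cell marker counts and Irf8 per 1000 macrophage and dendritic cell marker counts, with points for libraries, bars for means and lines for SD. Knockdown tumour 4, at 23.6 in the middle panel, lies inside the control range of 17.9 to 27.3.

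The genes whose tumour pattern was most like that of 4 members were found by Pearson's r of log2(CPM + 0.5) over the 10 tumour libraries, among genes with a mean of at least 1 CPM. These values describe libraries that fall into 2 groups and share their depth, so r is also given with the group means removed. For Ifng the 4 closest were Wdr12 (r = 0.988, 0.88 with means removed), Gbp7 (0.985, 0.791), Nrip1 (0.982, 0.819) and Iigp1 (0.977, 0.69), Gbp7 and Iigp1 being interferon gamma targets named above. For Ido1 they were Amigo2 (0.988, 0.818), Sf3a3 (0.987, 0.925), Lrp8 (0.984, 0.763) and Mcc (0.984, 0.801). For Irf8 they were Spn (0.976, 0.975), Fermt3 (0.967, 0.961), Ptk2b (0.952, 0.948) and Cyfip2 (0.946, 0.934), the first of which encodes the leukocyte surface protein CD43. For Irf1 they were C1s1 (0.943, 0.886), Tnfrsf11a (0.936, 0.871), Ifrd2 (0.932, 0.878) and Piga (0.913, 0.843).

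In the CRISPR screen, guides against Ifngr1 and Ifng were read in MC38 cells from the 2 kinds of host, with 27142741 reads from C57BL/6 and 19114273 from Rag1-knockout mice. With 1 library per host there is no replicate and no test. The 4 Ifngr1 guides had 116, 326, 578 and 133 reads in the C57BL/6 library and 90, 369, 866 and 430 in the Rag1-knockout library. After scaling to depth all 4 were less abundant in the C57BL/6 library, and their log2 ratios of C57BL/6 over Rag1-knockout were -0.11, -0.64, -1.05 and -1.99. Their median was -0.85, beside a median of 0.12 and quartiles of -0.47 and 0.69 over 18108 guides, so 1 of the 4 lay between the quartiles. The 4 Ifng guides gave -0.50, 0.72, 0.51 and -1.89, with a median of 0.00 and no common direction. Guides to the other members were not analysed here.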

How the data were processed

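Levels and tests were computed from the deposited table of whole-number read counts per gene symbol in 16 RNA libraries, which the authors did not normalise, and guide values from the deposited read counts per guide in 2 screen libraries. Per the labels' protocols, Trizol extraction and bead capture of mRNA preceded a VAHTS library kit for Illumina. The submitters' processing notes list the aligner STAR 2.7.1a and the counter HTSeq 0.13.5 among their tools, without parameters, and a human build, whereas the symbols are those of mouse genes. The mouse build and the strand setting are not given in the sources.

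Samples were grouped by titles and genotype labels. Control and knockdown libraries were compared within cells and within tumours with edgeR 4.0.16 (R 4.3.3): TMM scaling, filterByExpr, robust quasi-likelihood fits, two-sided tests and Benjamini-Hochberg adjustment over all genes, threshold 0.05. Filtering left out 1109 genes in cells and 1277 in tumours. For the interaction, 1 fit over 16 libraries took the genes with counts in both parts. The script was tested on simulated data. Each standard error is the log2 fold change over the square root of F. Of 26 replicate pairs none agreed within counting noise (lowest chi-square per degree of freedom 5.87). CPM uses library totals, and CPM per kb uses exon lengths of GENCODE M21, from which the gene coordinates come. Ratios were compared by exact permutation tests in scipy 1.17.1. Guide ratios used a pseudocount of 1 CPM and guides with at least 20 reads.

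Alternatives were DESeq2 size factors, library totals, no filter, a stricter filter (1 CPM and 10 counts), the DESeq2 1.42.0 test, limma 3.58.1 voom, a replicate block, all libraries in 1 fit, and leaving out each library. The members, the 14 other gene lists and the tests were chosen with earlier results of these data known. Named genes were all members, up to 3 genes of each list with the smallest p in the direction with more calls, 5 genes always named (Stat3, Ptpn2, Socs3, Cxcl9, Cd274), Mbtps1, and the 4 genes closest to Ifng, Ido1, Irf8 and Irf1, of which the text prints those its comparisons use. Another gene that the rule takes is not reported here. Eomes, Tbx21, Kmo, Kynu, Ptpn11, Pias4, Jak3, Slc7a5, Icam1, Psmb10 (interaction and tumours), Ccr7, Cd4, Thy1 and S100a9 were named after their values were seen.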

Additional observations from a re-analysis of the deposited data

Results flagged for a closer look

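The difference in the knockdown effect on Socs1 between tumours and culture was -0.98 on the log2 scale by the interaction test, the separate fits giving 1.17 in cells and 0.17 in tumours. The same test gave 0.65 for Mbtps1, the targeted gene, whose fall was smaller in tumours. Tumour libraries also hold host RNA, so neither difference can be told apart from dilution by it. Among 22 groups of 5 tumour libraries examined for a library apart from the rest, of which chance marks about 1 in 20, Irf8 had its lowest knockdown tumour, replicate 3, at 48.2 CPM while the other 4 stood at 62.9 to 68.5. In that library the summed macrophage and dendritic cell markers were also lowest, at 2330 CPM against 2990 to 3910 in the other 4 knockdown tumours, and their part in the Irf8 value was not tested. The ratio of Ifng to T and NK cell markers had its lowest knockdown tumour, replicate 4, at 23.6 while the other 4 stood at 32.1 to 35.5.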

How the results depend on the processing

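Ifng and Ido1 in tumours, Socs1 in cells and the Socs1 difference kept their direction and call in every alternative that could test them. With all 16 libraries in 1 fit, Ifng, Ido1 and Irf8 were not tested, being listed at 0 in cells. Correlations of same-numbered deviations lay between -0.236 and 0.0414 in cells and between -0.282 and 0.192 in tumours. The best match had the same number in 0 of 3 pairs in cells and 1 of 5 in tumours. Whether the replicate numbers pair the libraries was not tested. With the replicate block 508 genes were called in cells, against 1111 without it, 4746 in tumours and 2177 for the interaction. Leaving out each library, the genes called in cells ran from 290 to 1530 (290 without control cells 1, 466 without control cells 2, 330 without knockdown cells 1) and for the interaction from 1667 to 3359 (1855 without control cells 3, 1667 without knockdown cells 3). The number of members that fell in tumours was 1 with the DESeq2 test, Jak1, and 0 to 1 over the libraries left out. Signs turned among values that did not pass the test, over the libraries left out: Ifngr1 in cells ran from -0.02 to 0.06, Ptpn2 in cells from -0.03 to 0.09, Ifngr2 in tumours from -0.06 to 0.09, the interaction for Jak1 from -0.10 to 0.05 and for Irf1 from -0.15 to 0.03, and the difference in the Irf8 ratio from -0.237 to 0.877. The Ifng ratio differed by 7.67 to 11 per 1000 marker counts (exact permutation p from 0.0159 to 0.0476). These p-values are not adjusted over the 2 ratios, and the unadjusted p with all libraries was 0.0238. The cause of these changes was not tested. The median log2 fold change of all genes moved by at most 0.04 under any scaling, and 56.1% of interaction calls were higher with TMM, 60.7% with DESeq2 size factors and 50.6% with library totals. The tumours had more libraries and more reads than the cells, and the 27 to 43 Ifng reads and 5 to 22 Ido1 reads of control tumours limit the precision of their fold changes.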
